A study of Caenorhabditis elegans with 9 samples.

Results

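Transcript levels of *daf-1*(*m40*) mutants were compared with those of N2, the Bristol wild type of *Caenorhabditis elegans*. The members are the entries of the deposited gene table that name a gene and reach 0.5 FPKM (fragments mapped, scaled to transcript length and to the size of the library) in 2 or more of the 6 libraries compared. There were 13555 such entries among 40313 in the table. A further 26572 named entries stayed below that minimum, of which 21128 were listed at 0 in all 6 libraries, and 186 entries named no gene. Each genotype had 3 biological replicates, called batches 1 to 3. All of them were whole-worm populations of gravid adult hermaphrodites, fed NA22 *E. coli*. They grew at 16 °C up to L4, the last larval stage, and spent the next 25 h at 25 °C, as the labels give it. The study's methods give a slightly shorter time. Each RNA came from 250 mg of pooled worms, and the *daf-1* mutants carry 1 allele, so that the allele and other differences in strain background cannot be told apart. The remaining 3 libraries of the 9 in the series, *daf-1*;*daf-3* double mutants, were not compared here.

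*daf-1* encodes a type I TGFβ receptor, which belongs to the pathway named after its ligand. In *C. elegans* that ligand, DAF-7, is released mainly by a pair of sensory neurons and signals through DAF-1 and the type II receptor DAF-4. Active receptors act on the SMAD proteins DAF-8 and DAF-14, which oppose the co-SMAD DAF-3 and its Sno/Ski partner DAF-5. Loss of the receptor sends larvae into the dauer stage, a stress-resistant diapause, and in adults the pathway is known for effects on egg laying, feeding, fat storage, germline size and reproductive aging. The question of the comparison is which genes change in adults when the receptor is impaired.

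The 6 libraries were alike in their totals. Summed FPKM ran from 748170 to 851264, and 16281 to 17196 entries were above 0. Read counts are not part of the table, so no counting interval is given. Correlations of log2 values between libraries of a genotype were 0.967 to 0.977 in N2 and 0.973 to 0.975 in *daf-1*, against 0.943 to 0.952 between genotypes. Libraries with the same batch number deviated from their genotype means together, with correlations of 0.196, 0.132 and 0.244 in batches 1 to 3, against −0.195 to 0.012 for other pairs. The batch number was therefore kept as a block. Differences are *daf-1* minus N2 on the log2(FPKM + 0.25) scale, in which 1 is a doubling for genes far above the pseudocount, and each is followed by its standard error (SE). An entry was called when limma gave a difference of at least 1 in size with p, adjusted by Benjamini-Hochberg across the 13555 entries, below 0.05. Only called genes are said to have risen or fallen. The p-values rest on 3 libraries a genotype.

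The targeted gene was measured first. *daf-1* (chromosome IV, 132416 to 138081, in WBcel235) had 21.6, 23.7 and 22.3 FPKM in N2 batches 1 to 3 and 13.9, 12.77 and 13.4 FPKM in the *daf-1* mutants. The mutant libraries all lay below the N2 libraries, by 0.74 on the log2 scale (SE 0.09, limma adjusted p = 0.00332), which is short of the 2-fold minimum, so the transcript was still present. *daf-7*, the ligand, had 3.40, 3.23 and 3.85 FPKM in N2 and 5.31, 4.71 and 4.78 FPKM in *daf-1*, a difference of 0.47 (SE 0.14, adjusted p = 0.0393). *daf-5*, the Sno/Ski partner of DAF-3, had 34.8, 40.5 and 45.99 FPKM in N2 against 27.4, 27.9 and 28.3 FPKM in *daf-1*, a difference of −0.52 (SE 0.08, adjusted p = 0.00753). For the SMAD genes *daf-8*, *daf-14* and *daf-3* the differences were 0.14, 0.13 and 0.06, with adjusted p of 0.317, 0.273 and 0.64, and their libraries overlapped. *daf-4* shares its entry with C05D2.11, which differed by 0.12 (adjusted p = 0.185). No pathway gene reached the 2-fold minimum.

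The material was compared with its label by marker genes. Summed levels of the 6 vitellogenins, yolk protein genes of adult hermaphrodites, were 12493 to 16446 FPKM in N2 and 13058 to 13998 FPKM in *daf-1*, with overlapping ranges. *cpg-2*, an eggshell proteoglycan, was at 1819, 1908 and 1661 FPKM in N2 and 1405, 1450.2 and 1317 FPKM in *daf-1*. Genes of males were near the minimum, with 4 of 12 tested, summed levels of 2.36 to 3.25 FPKM in N2 and 2.77 to 3.34 FPKM in *daf-1*, and none called by limma, nor any at an unadjusted p below 0.05. Over all 13555 entries 57.5% had an unadjusted p below 0.05, 26.9% higher and 30.6% lower. Genes of molting and the precuticle, which mark larvae, had summed levels of 585 to 765 FPKM in N2 and 568 to 614 FPKM in *daf-1*. Whether larvae were present was not tested. Of 25 tested genes of this list *nas-6* rose and *bli-5* fell, or 4% each against 8.84% and 1.15% of all entries. Neither call held in all settings, since *nas-6* was not called without the batch block, after quantile normalization or without batch 2, and *bli-5* not without batch 1 or batch 2. Their median difference was 0.12, and it turned to −0.05 when library medians were set equal.

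Of the 13555 entries 1354 were called, or 9.99%. They comprised 1198 entries that rose (8.84%) and 156 that fell (1.15%), so that 88.5% of the calls were higher in *daf-1*. That share depended on scaling. It was 78.2% (942 higher, 262 lower) with library medians set equal, which moved the median difference of all entries to −0.155, and 66.5% (753 higher, 379 lower) after quantile normalization, which moved it to −0.10. In the fit as reported that median was 0.01. Without the 2-fold minimum, 6645 entries passed the adjusted p alone, 3029 of them higher and 3616 lower, a share of 22.3% and 26.7%, so small differences leaned down and large ones up. The count depended on batch 2. Leaving out both libraries of batch 2 gave 732 calls (653 higher, 79 lower), whereas without batch 1 or batch 3 there were 1350 and 1380. With the batch block removed, 1169 entries were called, 1033 of them higher.

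Genes of low level were called more often than abundant genes. An entry could pass the minimum on the libraries of 1 genotype alone, so the filter bears on the shares at low levels. At 0 in all N2 libraries were 26 entries that rose, and at 0 in all *daf-1* libraries 10 that fell. The shares of all entries given beside the gene lists below take no account of level. The entries that rose had a median of 0.969 FPKM in N2 and 4.38 FPKM in *daf-1*, against medians of 9.63 and 10.8 FPKM over all entries. Those that fell had medians of 5.66 and 1.73 FPKM. Among entries with a mean below 1 FPKM 15.5% rose, among those from 1 to 10 FPKM 13.1% rose, and at 100 FPKM or more 4.25% rose. The median difference was 0.34 in the lowest of these classes and −0.17 in the highest. Of the calls, 333 higher and 36 lower were at least 4-fold, and 37 higher and 4 lower at least 16-fold. In 1055 of the 1198 that rose every *daf-1* library lay above every N2 library, and in 142 of the 156 that fell every one lay below. Over all entries the libraries were apart in this way in 22.2% with *daf-1* higher and in 29.5% with *daf-1* lower. Genes that rose made up 1.84% to 2.20% of the summed FPKM of an N2 library and 5.98% to 6.39% of a *daf-1* library. In whole worms, fewer cells of a type and less RNA per cell cannot be told apart.

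**Figure D1:**
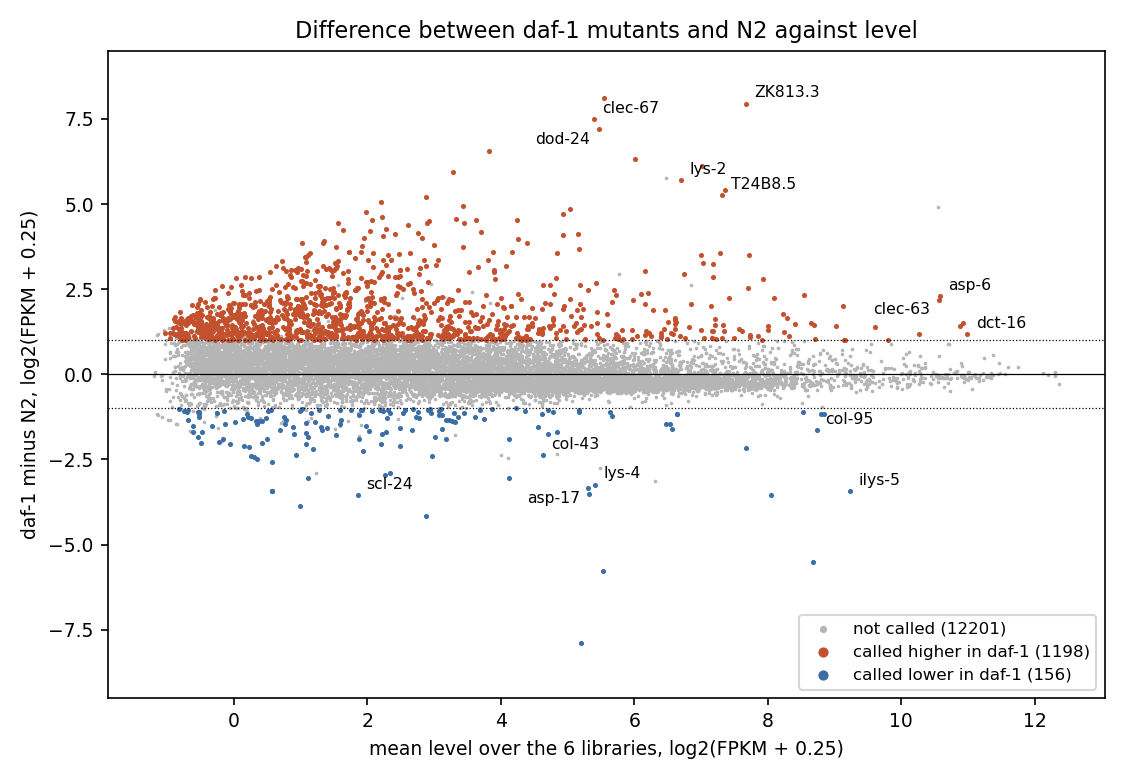
Difference between *daf-1* and N2 (log2(FPKM + 0.25) scale, y axis) against the mean level (x axis, log scale) for the 13555 entries, with called entries coloured by direction and 14 genes labelled. Of 1354 calls 1198 lie above 0, and most sit at low levels.

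The genes named next were taken from called single-gene entries whose libraries did not overlap, so their lack of overlap is no result. The largest increase among them was in ZK813.3 (chromosome X, 3441839 to 3442458), which has no gene name in the files. It had 1.57, 1.18 and 1.43 FPKM in the N2 libraries and 370.0, 469 and 381 FPKM in *daf-1*, a difference of 7.95 (SE 0.14, adjusted p = 1.67e-05). *clec-67*, a C-type lectin gene, went from 0.0595, 0.328 and 0.312 FPKM to 83.2, 83.1 and 83.4 FPKM (7.49, SE 0.21, adjusted p = 4.46e-05). Its 3 *daf-1* values were nearly equal. *dod-24*, a CUB-domain gene first known as a target downstream of the forkhead factor DAF-16, had 0.336, 0.428 and 0.276 FPKM in N2 and 107, 80.1 and 74.9 FPKM in *daf-1* (7.19, SE 0.15, adjusted p = 1.85e-05).

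Next came a pair of neighbours on chromosome I. C54C8.12 was listed at 0 in all 3 N2 libraries and at 10.6, 24.8 and 47.6 FPKM in *daf-1* (adjusted p = 0.00045). *nlp-39*, a neuropeptide-like gene close by, had 0, 0 and 0.0930 FPKM in N2 and 8.61, 19.1 and 28.7 FPKM in *daf-1* (5.94, SE 0.29, adjusted p = 0.00024). In both genes the *daf-1* levels spread over more than 3-fold, with batch 1 lowest and batch 3 highest. *lys-2*, which encodes a lysozyme, rose from 3.64, 2.78 and 4.73 FPKM to 241, 182 and 189 FPKM (5.70, SE 0.15, adjusted p = 3.59e-05). Also among the 12 highest were the infection response genes F35E12.5 (*irg-5*) at 5.42 and T24B8.5 at 5.26, and F08G5.6 (*irg-4*) at 5.05. The other members of that set were C01G10.4 at 5.22, ZK218.5 at 4.94 and F49F1.7 at 4.86. A joined entry, 21ur-13425,C17H12.8, was higher still, with 0.0743, 0.0689 and 0.0732 FPKM in N2 and 134, 74.1 and 70.8 FPKM in *daf-1* (8.11, SE 0.21). It lies outside the rule for named genes and was picked after its values were seen, and its level cannot be divided between its genes.

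Among the 12 lowest were several short non-coding genes. ZK809.10 (chromosome IV, 11659573 to 11659673), annotated as a short non-coding RNA, had 42.2, 142 and 34.1 FPKM in N2 and was listed at 0 in all *daf-1* libraries (adjusted p = 0.000278). C01B10.46 had 54.2, 91.0 and 87.6 FPKM in N2 and 0, 0 and 41.7 FPKM in *daf-1*, with an SE of 1.41. C05D9.12 had 33.7, 124 and 36.5 FPKM against 12.61, 31.3 and 0 FPKM, with an SE of 1.10. Y53F4B.48, a small nucleolar RNA gene, had 5.07, 17.9 and 15.5 FPKM against 0, 0 and 4.12 FPKM. The last 3 of these, and F56D6.8 (−2.40), lost their call without batch 2. FPKM of genes this short is divided by a small length, which enlarges each fragment's share. In the annotation 202 tested entries were of the class ncRNA, of which 15 rose and 15 fell, against 1079 and 112 of 10825 protein-coding entries.

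Protein-coding genes that fell included secreted and gut proteins. *scl-24*, a gene of the SCP/TAPS secreted protein family, had 4.08, 6.63 and 8.62 FPKM in N2 and 0.128, 0.284 and 0.572 FPKM in *daf-1* (−3.55, SE 0.18, adjusted p = 0.000283). *ilys-5*, an invertebrate-type lysozyme gene, fell from 1330.0, 1128 and 813 FPKM to 194, 84.4 and 60.2 FPKM (−3.42, SE 0.20, adjusted p = 0.0004). That was also the largest fall in mean FPKM among called single-gene entries whose libraries did not overlap. *asp-17*, an aspartic protease gene, had 79.2, 67.7 and 69.1 FPKM in N2 and 7.07, 7.34 and 6.09 FPKM in *daf-1* (−3.35, SE 0.09, adjusted p = 3.59e-05). *lys-4*, a further lysozyme gene, went from 86.6, 67.9 and 74.5 to 10.3, 6.24 and 7.33 FPKM (−3.24, SE 0.09, adjusted p = 4.56e-05). The ratios of mean FPKM, *daf-1* over N2, were 0.0509, 0.104, 0.0949 and 0.104 in these 4 genes. The remaining members of the 12 lowest were C18H7.11 at −2.91, the collagen gene *col-43* at −2.38 and the lectin gene *clec-218* at −2.26.

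**Figure D2:**
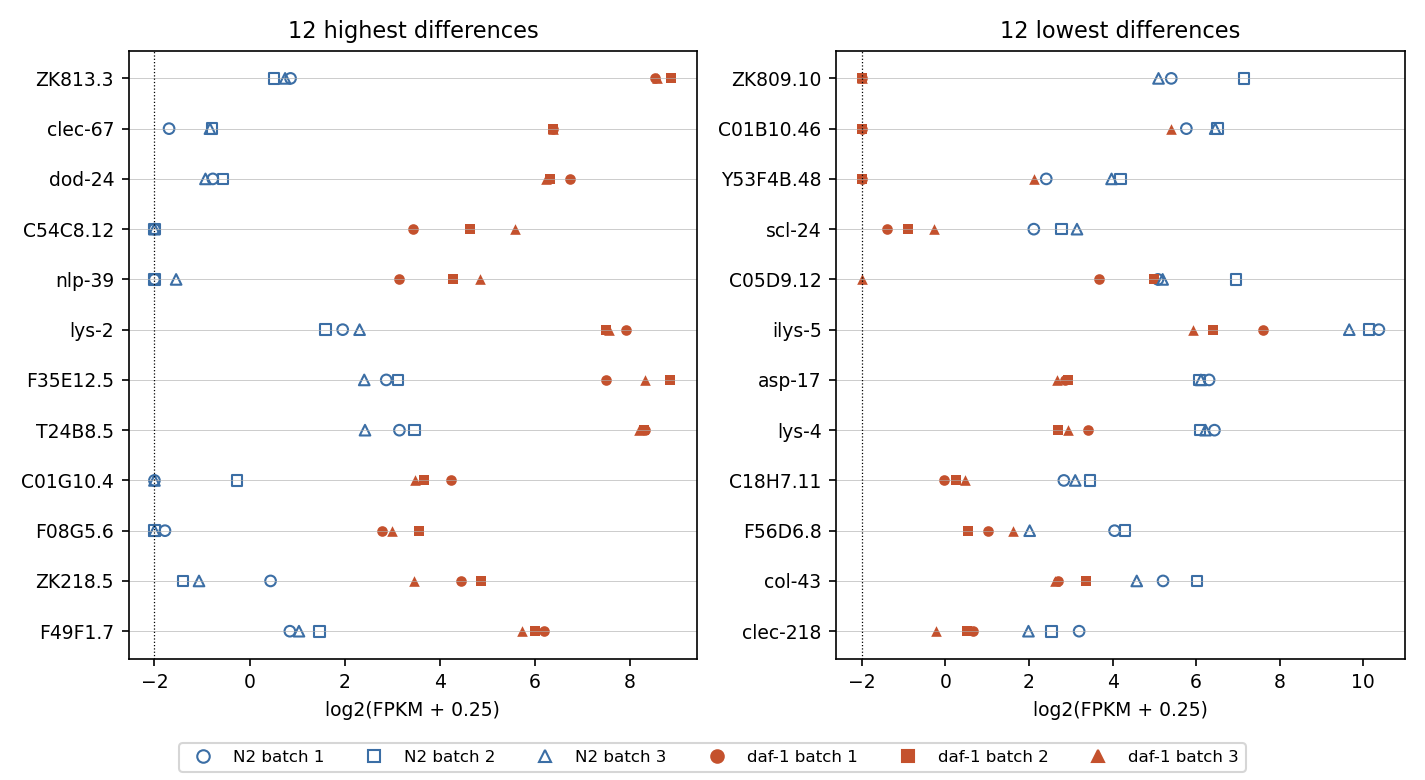
Levels in each library (log2(FPKM + 0.25), x axis) of the 12 genes with the highest and the 12 with the lowest difference, N2 and *daf-1* in separate colours, with a dotted line at the value of 0 FPKM. The genes were chosen among entries whose genotypes do not overlap. C01B10.46 and C05D9.12 have the widest spread within *daf-1*.

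By change in mean FPKM, among the same called entries, the largest increases were in abundant genes. *asp-6*, an aspartic protease of the gut, had 520.3 ± 58.6 FPKM (mean ± SD, n = 3) in N2 and 2536 ± 271 FPKM in *daf-1* (2.29, SE 0.05). *clec-63* had 544 ± 25.8 and 2485 ± 96.7 FPKM (2.19, SE 0.05). The collagen genes *col-124* and *col-19*, the latter a marker of the adult cuticle, rose by 1.51 (SE 0.16) and 1.17 (SE 0.11). *asp-1* and *dct-16* completed the 6, at 1.41 and 1.17. Among called entries on the falling side stood *ilys-5*, the collagen gene *col-95* at −1.64, W03F11.1 at −2.15, the cysteine protease gene *cpr-1* at −1.17, and the saposin-like genes *spp-14* at −1.17 and *spp-17* at −1.09.

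Genes of immune and antimicrobial function were next described by group. Of 91 tested C-type lectins, carbohydrate-binding proteins many of which are secreted in the intestine, 31 rose and 5 fell, or 34.1% and 5.49% against 8.84% and 1.15% over all entries, and 21 and 3 without batch 2. Their median difference was 0.49 against 0.01 over all entries. *clec-85* had 25.6, 21.9 and 24.4 FPKM in N2 and 283, 204 and 219 FPKM in *daf-1* (3.27, SE 0.07, adjusted p = 2.2e-05). *clec-65* had 27.8, 21.8 and 22.8 FPKM against 220.4, 161 and 188 FPKM (2.96, SE 0.06, adjusted p = 1.85e-05). *clec-41* differed by 2.38 (SE 0.06). *clec-52* was among those that fell, with 36.3, 35.6 and 48.7 FPKM in N2 and 10.98, 10.9 and 13.3 FPKM in *daf-1* (−1.75), and it was picked after its values were seen. Lectin genes thus moved in both directions, with more of them up.

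Lysozymes and saposin-like genes, whose products act on bacterial walls and membranes, had equal numbers of calls in each direction. Of 31 tested 5 rose and 5 fell, whereas 8.84% of all entries rose and 1.15% fell. Both shares in the list were above those of all entries, and the excess was larger for genes that fell. *lys-1* had 149, 114 and 109.99 FPKM in N2 and 702, 578 and 578 FPKM in *daf-1* (2.32, SE 0.05, adjusted p = 2.13e-05). *lys-8* had 106, 87.4 and 93.4 FPKM against 509, 424 and 415 FPKM (2.23, SE 0.05, adjusted p = 2.2e-05). Together with *lys-2* these lysozyme genes rose, while *lys-4* and *ilys-5* fell.

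The *dod* list had 11 tested genes, several of which encode secreted proteins with a CUB-like domain. Of these 8 rose and none fell, or 72.7% higher against 8.84% of all entries, with a median of 2.20. *dod-22* had 0.0467, 0 and 0 FPKM in N2 and 11.02, 5.75 and 5.42 FPKM in *daf-1* (4.78, SE 0.24, adjusted p = 0.000264). *dod-6* was already abundant, with 147, 176 and 220.2 FPKM in N2, and reached 375, 443 and 461 FPKM (1.25, SE 0.07). Genes known from responses to infection gave 8 that rose of 17 tested, or 47.1% against 8.84% of all entries, with a median of 0.74. K08D8.5 had 0.937, 0.621 and 0.587 FPKM in N2 and 20.5, 19.1 and 22.6 FPKM in *daf-1* (4.46, SE 0.17, adjusted p = 0.00012). *sek-1*, the MAP kinase kinase of the p38 immune pathway, had 6.86, 4.81 and 6.39 FPKM against 33.3, 31.3 and 31.001 FPKM (2.37, SE 0.11, adjusted p = 0.000234). The *pals* genes, several of which respond to intracellular infection, gave 1 that rose and 2 that fell of 16, and none either way without batch 2. The shares in the fit as reported were 6.25% and 12.5%, against 8.84% and 1.15% over all entries.

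Antimicrobial peptide genes of the epidermis rose in 17 of 41 tested, or 41.5% against 8.84% of all entries, and their median was 0.97. None fell, where 1.15% of all entries did. *nlp-33* had 49.5, 37.03 and 46.9 FPKM in N2 and 209.7, 160.5 and 187 FPKM in *daf-1* (2.06, SE 0.05, adjusted p = 3.59e-05). *nlp-29*, which is induced by wounding and fungal infection, had 11.2, 12.9 and 21.9 FPKM against 42.5, 47.7 and 88.7 FPKM (1.92, SE 0.07, adjusted p = 8.91e-05). Batch 3 was highest for *nlp-29* in both genotypes, and the difference within batches was 1.90, 1.87 and 2.01. *cnc-4*, a caenacin gene, had 1.15, 1.37 and 1.65 FPKM against 8.16, 9.21 and 13.4 FPKM (2.66, SE 0.15). Each of these peptides was higher in *daf-1* in every batch, but they were named for their small p, so that is no result.

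F-box and MATH-BTB genes, large families of adaptors of ubiquitin ligases, behaved otherwise. Of 265 tested 28 rose and 5 fell, close to the background of 8.84% and 1.15%, while the median was −0.21. The counts turned to 17 higher and 28 lower after quantile normalization, and to 15 and 2 without batch 2. *fbxa-107* had 0.187, 0.217 and 0.370 FPKM in N2 and 6.58, 4.85 and 6.21 FPKM in *daf-1* (3.60, SE 0.21, adjusted p = 0.000422). *bath-19* and *bath-24* differed by 3.15 (SE 0.20) and 3.42 (SE 0.25). These genes stood below 1 FPKM in all N2 libraries.

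Digestive proteases are made in the intestine. Of 19 tested aspartic and cysteine protease genes 8 rose and 2 fell, or 42.1% and 10.5% against 8.84% and 1.15% over all entries. Their median was 0.54. *asp-5* had 253, 208 and 207 FPKM in N2 and 942, 832 and 908 FPKM in *daf-1* (2.01, SE 0.06, adjusted p = 5.73e-05). *asp-3* had 339.8, 245 and 263 FPKM against 870.3, 705 and 701 FPKM (1.43, SE 0.05, adjusted p = 0.00011). Those that fell were *asp-17* and *cpr-1*. In a list of 16 intestine markers, which shares *asp-1* and *cpr-1* with the proteases, 2 rose and 2 fell, or 12.5% each way. The counts were 3 and 1 without batch 1 or after quantile normalization, and the median was 0.56. *act-5*, the actin of the microvilli, had 266, 275 and 277 FPKM in N2 and 578, 587 and 525 FPKM in *daf-1* (1.05, SE 0.06, adjusted p = 0.000343), though its call was lost with library medians set equal. *mtl-2*, a metallothionein gene, fell by 1.04 (SE 0.14), with N2 batch 1 highest at 64.9, 45.5 and 36.1 FPKM in batches 1 to 3 against 23.9, 22.4 and 22.4 FPKM in *daf-1*. Its call was lost without batch 1 and without batch 2.

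**Figure D3:**
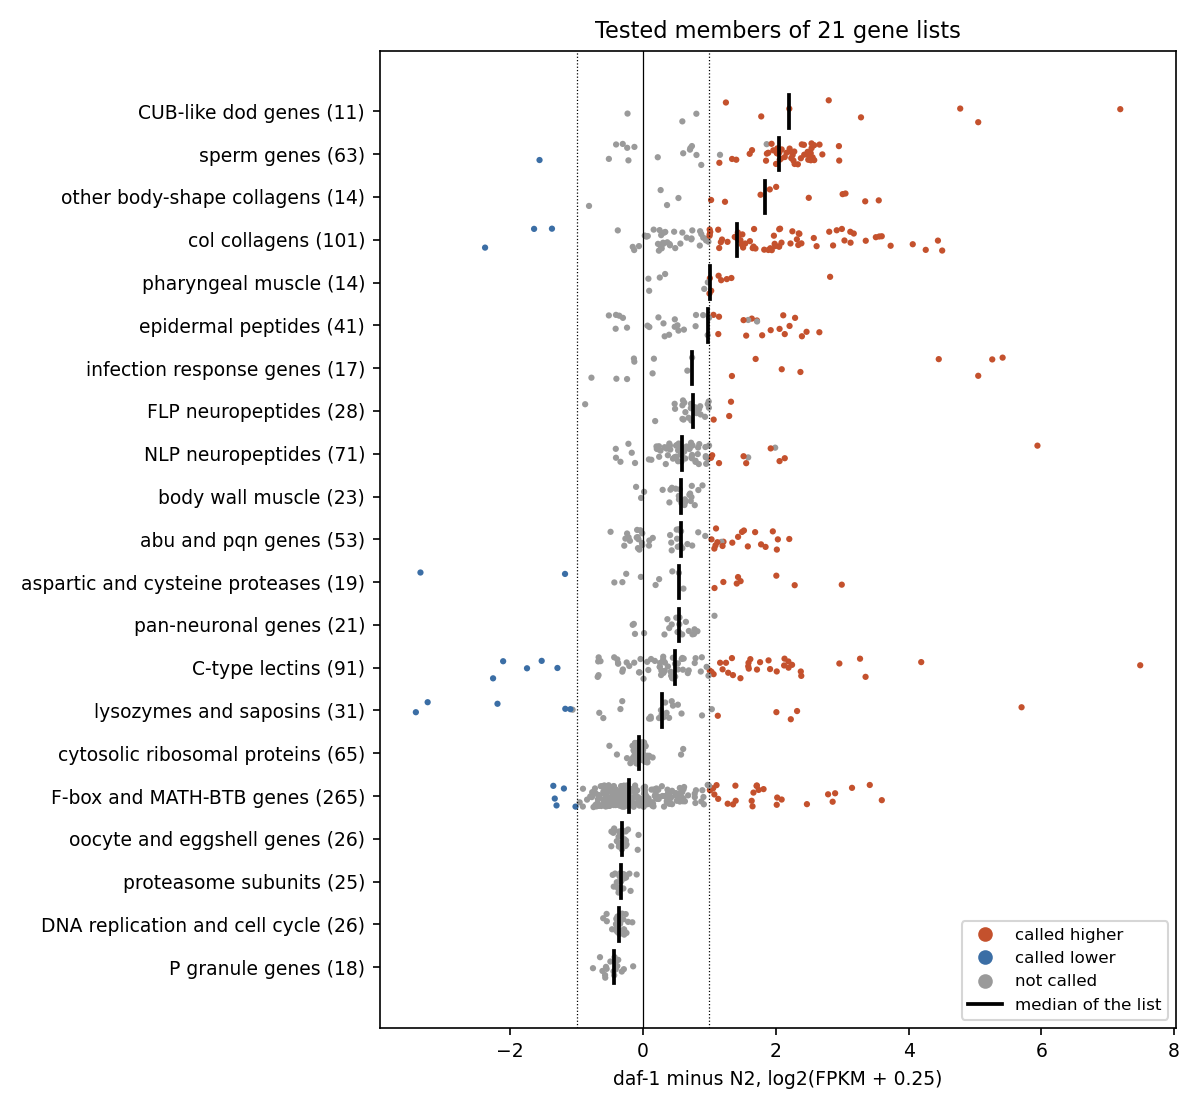
Differences of the tested members of 21 gene lists (x axis, log2(FPKM + 0.25) scale, *daf-1* minus N2), a row per list, with the median of each list as a bar and called members coloured. Sperm genes, body-shape collagens and CUB-like *dod* genes have medians of 2.05, 1.84 and 2.20, and ribosomal protein genes a median of −0.06.

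Genes of the cuticle, the collagen-rich outer coat made by the epidermis, followed. Of 101 tested *col* collagens 61 rose and 3 fell, or 60.4% and 2.97% against 8.84% and 1.15% over all entries. Their median was 1.42. *col-81* had 30.7, 17.8 and 12.62 FPKM in N2 and 280.1, 303 and 124 FPKM in *daf-1* (3.51, SE 0.18, adjusted p = 0.000264). *col-39* had 2.25, 3.88 and 4.68 FPKM against 21.4, 25.6 and 30.9 FPKM (2.81, SE 0.13, adjusted p = 0.000219). *col-98* and *col-103* were abundant, and differed by 1.13 (SE 0.05, not called with library medians set equal) and 0.99 (SE 0.05, just under the 2-fold minimum). Collagens that fell were *col-43*, *col-95* and *col-135*. Many collagen genes are similar in sequence, and how shared reads were divided among them is not given in the table.

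Collagens named for their effect on body shape rose in 10 of 14 tested, and none fell. That was 71.4%, against 8.84% of all entries that rose and 1.15% that fell. *bli-6* had 3.78, 2.91 and 2.16 FPKM in N2 and 29.2, 30.8 and 18.8 FPKM in *daf-1* (3.05, SE 0.12, adjusted p = 0.000135). *dpy-13* had 0.595, 0.966 and 0.588 FPKM against 14.1, 12.05 and 7.61 FPKM (3.55, SE 0.22, adjusted p = 0.000443), and *dpy-4* and *dpy-5* differed by 3.35 (SE 0.19) and 3.01 (SE 0.26). These 4 are the members of smallest p, so that their *daf-1* libraries lay above all N2 libraries is no result. The 6 furrow collagens, which form the circumferential furrows of the cuticle, did not follow this pattern. None of them was called by limma, nor was any at an unadjusted p below 0.05, a rule that 57.5% of all entries passed. Their median was 0.28.

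Values of the furrow collagens depended on the batch. *dpy-7* had 30.5, 37.5 and 66.9 FPKM in N2 and 47.4, 54.7 and 54.2 FPKM in *daf-1* (0.29, SE 0.19, adjusted p = 0.236). Within batches its difference was 0.63, 0.54 and −0.30. *dpy-2* had 23.8, 25.13 and 49.2 FPKM against 34.1, 38.9 and 45.3 FPKM (0.34, SE 0.15, adjusted p = 0.109). For both genes N2 batch 3 was the highest N2 library by a wide margin, so that the genotypes overlapped. Of 26 tested cuticlins, non-collagen proteins of the cuticle, *cutl-14* and *cut-3* rose, or 7.69% against 8.84% of all entries. Both calls were lost without the batch block. *cut-3* had 15.9, 22.6 and 68.8 FPKM in N2 and 49.1, 59.7 and 98.3 FPKM in *daf-1* (1.17, SE 0.21, adjusted p = 0.00924), with N2 batch 3 above *daf-1* batches 1 and 2. The cuticlin median of 0.38 turned to −0.05 after quantile normalization.

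Hedgehog-related genes are a family expanded in nematodes and made mainly in the epidermis. Of 38 tested 12 rose, or 31.6% against 8.84% of all entries. In 6 of the 12 the libraries did not overlap, against 1055 of the 1198 entries that rose in all. *wrt-8* had 0.452, 0.467 and 1.47 FPKM in N2 and 2.54, 3.42 and 5.67 FPKM in *daf-1* (2.04, SE 0.20, adjusted p = 0.00212). *grd-10* had 25.2, 18.4 and 17.6 FPKM against 53.9, 61.3 and 50.5 FPKM (1.44, SE 0.13, adjusted p = 0.00149). N2 batch 3 was the highest N2 library in 10 of the 12. The count was 6 without the batch block, 6 without batch 1, 3 without batch 2, 6 after quantile normalization and 7 with library medians set equal. None of 24 patched-related genes, which encode relatives of the hedgehog receptor, was called by limma. At an unadjusted p below 0.05 there were 10 higher and 2 lower, where 26.9% and 30.6% of all entries were.

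The *abu* and *pqn* genes encode glutamine- and asparagine-rich proteins, several of them found in the cuticle of the pharynx. Of 53 tested 19 rose and none fell, or 35.8% higher against 8.84% of all entries, with a median of 0.57. The libraries did not overlap in 10 of the 19, against 1055 of the 1198 entries that rose in all. N2 batch 3 was the highest N2 library in 16 of the 19. The count was 11 without the batch block and 8 without batch 2. *pqn-94* had 55.3, 58.2 and 62.9 FPKM in N2 and 110.5, 124 and 127 FPKM in *daf-1* (1.03, SE 0.05, adjusted p = 0.000263). *pqn-31* had 15.02, 13.5 and 12.4 FPKM against 36.1, 38.4 and 30.9 FPKM (1.35, SE 0.08, adjusted p = 0.000436). Both were named for their small p, so their lack of overlap is no result. The call of *pqn-94* was lost with library medians set equal.

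The study ran quantitative PCR on *abu-8*, *abu-11*, *pqn-74*, *clec-61* and *math-38*, with *cdc-42* as reference, and reported an increase of each in *daf-1*. It used the same RNA and chose those genes from these libraries, so their changes are no independent evidence of direction. A further gene of that set, *sodh-1*, an alcohol dehydrogenase gene, had no position from the annotation, and its primers are not printed. The primers are shown because they mark what was assayed in each gene. All are printed 5′ to 3′, and coordinates are those of the gene in WBcel235.
abu-11 forward (gene on chromosome II, 192509 to 194558): tgttcaggtcggaggaacca
abu-11 reverse: attgtggctgacactgtggg
abu-8 forward (gene on chromosome V, 5192995 to 5194608): ccttgtggtgtctggcagc
abu-8 reverse: gagtttgttgtggctgagcg
pqn-74 forward (gene on chromosome IV, 13329507 to 13331406): gctactctcgcagctctcg
pqn-74 reverse: aactcgtatcctgggaggca
clec-61 forward (gene on chromosome II, 10488730 to 10490537): gcatcggagtacagtgggac
clec-61 reverse: gtatccgggcgtagcgattt
math-38 forward (gene on chromosome II, 1577378 to 1579986): atgggggtcgctgaagaatg
math-38 reverse: acggatttggagcttccacc

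*abu-8* had 2.19, 10.4 and 25.005 FPKM in N2 and 16.7, 30.8 and 41.5 FPKM in *daf-1* (1.69, SE 0.37, adjusted p = 0.0156). Its differences within batches were 2.80, 1.54 and 0.73. *abu-11* had 1.73, 4.26 and 13.4 FPKM against 11.1, 17.2 and 24.6 FPKM (1.78, SE 0.30, adjusted p = 0.00846), and differed by 2.52, 1.95 and 0.87 within batches. In both genes, and in *pqn-74* at 7.70, 13.9 and 32.004 FPKM against 30.5, 42.3 and 54.3 FPKM (1.43, SE 0.22), N2 batch 3 lay above *daf-1* batch 1. On the log2 scale, though not in FPKM, the gap between genotypes was widest in batch 1. *clec-61* and *math-38* showed no such overlap. *clec-61* had 4.74, 2.61 and 2.80 FPKM in N2 and 16.3, 10.2 and 13.1 FPKM in *daf-1* (1.91, SE 0.13). *math-38*, a MATH-domain gene, had 1.78, 0.650 and 0.606 FPKM against 8.94, 7.65 and 8.60 FPKM (2.89, SE 0.26). *sodh-1* had 31.98, 21.2 and 33.6 FPKM in N2 and 72.3, 52.2 and 54.5 FPKM in *daf-1* (1.05, SE 0.12, adjusted p = 0.00339), and its call was lost without batch 1, without batch 2 and with library medians set equal.

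**Figure D4:**
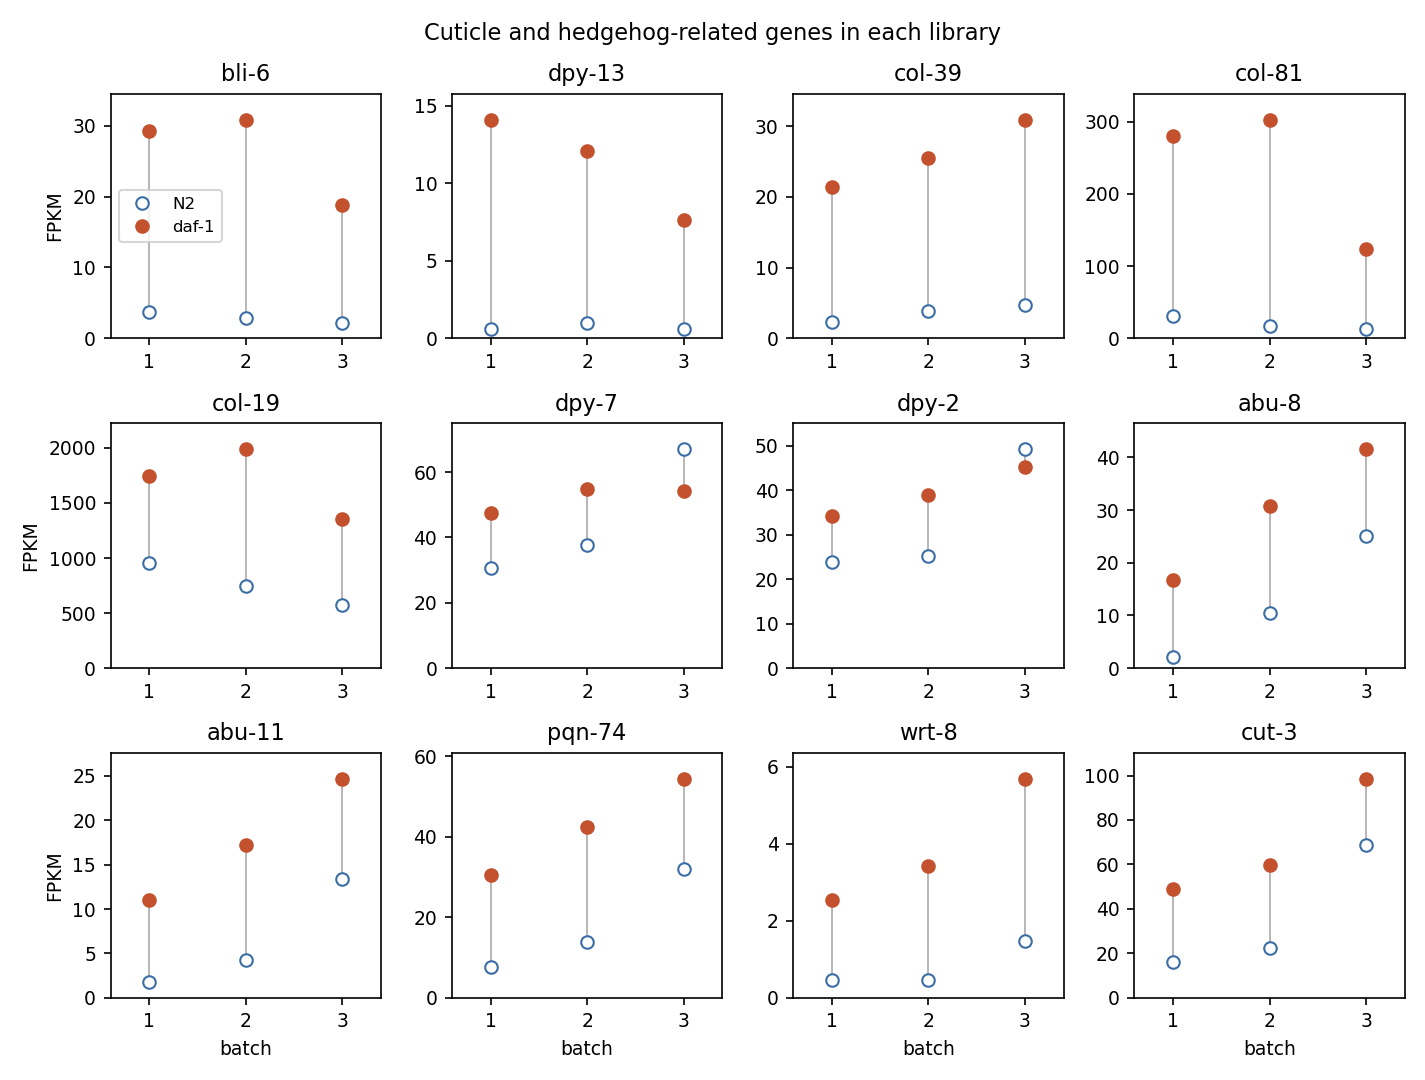
FPKM (y axis, from 0) of 12 cuticle and hedgehog-related genes in N2 and *daf-1* by batch, with a vertical line joining the 2 libraries of a batch. *bli-6*, *dpy-13* and *col-39* were named for their small p, and their genotypes are apart in every batch. In *dpy-7*, *dpy-2*, *abu-8* and *abu-11* N2 batch 3 reaches the level of *daf-1* libraries.

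Most genes of sperm rose. Of 63 tested, 47 rose (74.6%, against 8.84% of all entries) and 1 fell, with a median of 2.05, and their summed level was 180.5 to 258.5 FPKM in N2 against 359.4 to 450.2 FPKM in *daf-1*. *ssq-4*, a sperm-specific gene, had 1.51, 0.784 and 0.497 FPKM in N2 and 8.62, 7.84 and 4.98 FPKM in *daf-1* (2.70, SE 0.19, adjusted p = 0.000711). *nspd-5* had 0.441, 0.613 and 0.446 FPKM against 4.40, 4.76 and 3.25 FPKM (2.54, SE 0.19, adjusted p = 0.000932). *msp-56*, a gene of the major sperm protein, had 0.820, 0.761 and 0.467 FPKM against 4.90, 5.19 and 2.95 FPKM (2.28, SE 0.18, adjusted p = 0.00103). Major sperm protein genes are nearly identical copies, so their separate values are uncertain. N2 batch 1 was the highest N2 library in 42 of the 47 genes that rose and N2 batch 3 the lowest in 39, and the list's median difference was 1.37, 2.16 and 2.48 in batches 1 to 3. Leaving out batch 2 reduced the count from 47 to 24, with a median of 2.03.

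The sperm gene that fell was *fog-3*, which promotes the sperm fate in germ cells before spermatogenesis. It had 3.55, 3.38 and 3.32 FPKM in N2 and 0.730, 1.18 and 1.13 FPKM in *daf-1* (−1.56, SE 0.21, adjusted p = 0.00483). *fog-1*, which acts with it, had 16.8, 19.7 and 17.1 FPKM against 13.3, 11.8 and 12.12 FPKM (−0.51, SE 0.10, adjusted p = 0.013), and *spe-44*, a transcription factor of early spermatogenesis, differed by −0.40 (SE 0.10, adjusted p = 0.0241). These 3 genes were chosen after their values were seen. All were lower in *daf-1*, in contrast to the genes of sperm proteins.

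Genes of oocytes and the mitotic and meiotic germline were lower, by small amounts. None of 26 oocyte and eggshell genes was called by limma, while 24 were lower at the adjusted p alone, against 26.7% of all entries. Their median was −0.32. *spn-4*, a maternal RNA-binding protein gene, had 892, 972 and 789 FPKM in N2 and 668, 650.1 and 584 FPKM in *daf-1* (−0.48, SE 0.05, adjusted p = 0.00319). *rme-2*, the yolk receptor, had 339, 301 and 271 FPKM against 229, 213 and 211 FPKM (−0.48, SE 0.06, adjusted p = 0.0036). Of 18 P granule genes 17 were lower at the adjusted p, with a median of −0.44. *pgl-1* had 177, 169 and 149 FPKM in N2 and 115, 113 and 108 FPKM in *daf-1* (−0.56, SE 0.05). In all of these genes, named for their small p, the *daf-1* libraries lay below N2, which is no result.

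Meiotic chromosome genes were lower at the adjusted p in 19 of 21, with a median of −0.36, and genes of DNA replication and the cell cycle in 24 of 26, with a median of −0.35. No gene of either list was called. *rnr-2*, a subunit of ribonucleotide reductase, had 304, 314 and 281 FPKM in N2 and 203, 197 and 193 FPKM in *daf-1* (−0.60, SE 0.05, adjusted p = 0.00126). Proteasome subunit genes were alike in this respect, with 24 of 25 lower at the adjusted p and a median of −0.34. Over all 13555 entries 26.7% were lower by this rule and 22.3% higher. Of 14 genes transcribed in the early embryo, with a median of −0.57, *pes-1* fell, or 7.14% against 1.15% of all entries. It went from 11.1, 11.7 and 11.01 FPKM to 5.596, 6.03 and 4.60 FPKM (−1.03, SE 0.12, adjusted p = 0.00302). Its call was lost without batch 3, whereas 4 genes of this list fell after quantile normalization. Of 33 histone genes 4 fell and 1 rose, 9 fell after quantile normalization and 2 without batch 2, but many histone genes are near-identical copies without poly(A) tails. Cytosolic ribosomal protein genes had a median of −0.06, and none of 65 was called by limma, with 3 higher and 5 lower at an unadjusted p below 0.05, a rule that 57.5% of all entries passed.

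**Figure D5:**
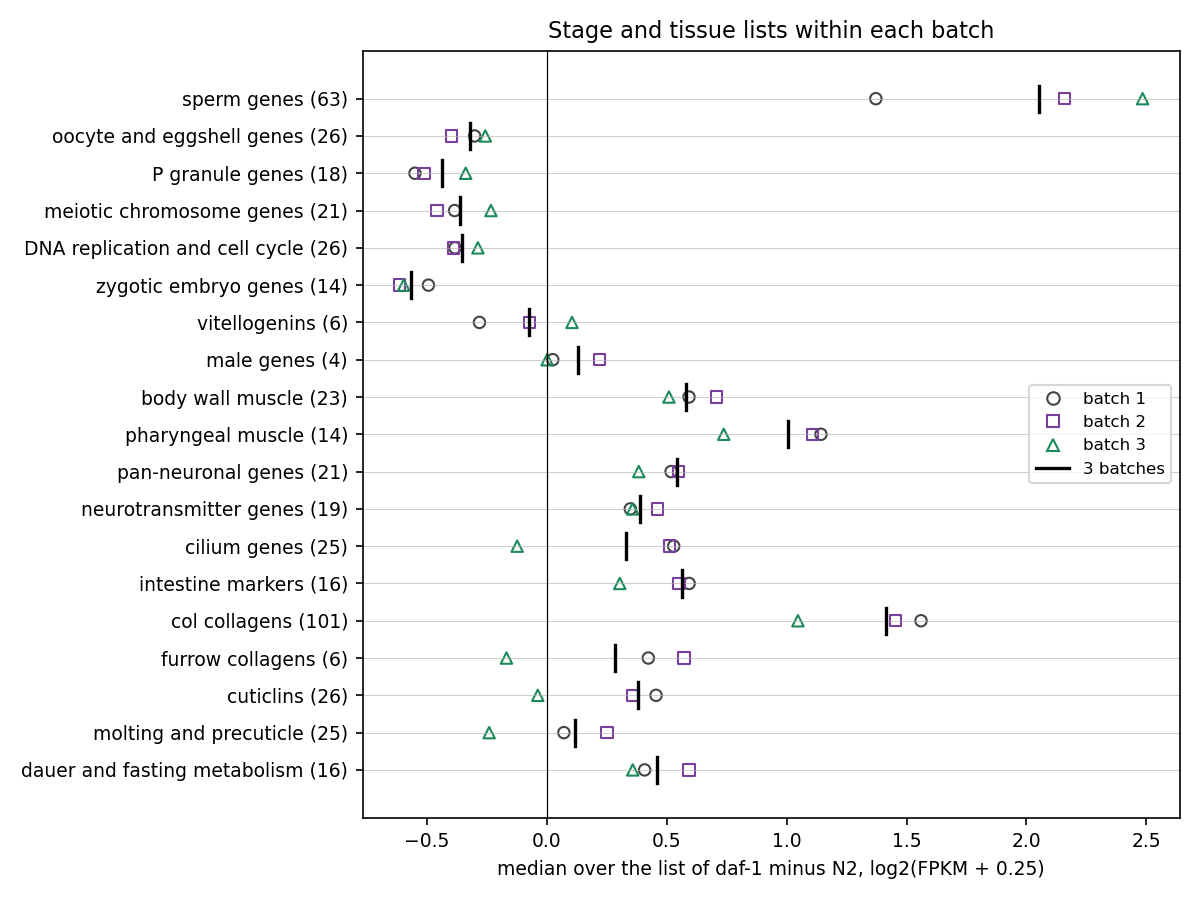
Median difference (*daf-1* minus N2, log2(FPKM + 0.25) scale, x axis) of 19 lists of stage, tissue and germline genes within each batch, with a black bar at the median over the 3 batches. Sperm genes stand to the right in every batch (1.37, 2.16 and 2.48), and the oocyte, P granule and replication lists stand to the left.

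Genes of body wall muscle differed by less than 2-fold. None of 23 body wall muscle genes was called by limma, while 19 were higher at an unadjusted p below 0.05 and 18 at the adjusted p, with a median of 0.58. Over all entries 26.9% and 22.3% were higher by these rules. *lev-11*, the tropomyosin gene, had 428, 493 and 453 FPKM in N2 and 747, 827 and 714 FPKM in *daf-1* (0.74, SE 0.05, adjusted p = 0.000661). *mlc-2*, a myosin light chain gene, had 542, 596 and 483 FPKM against 863, 948 and 817 FPKM (0.70, SE 0.05, adjusted p = 0.00064). Of 14 genes of the pharynx, mostly of its muscle, 8 rose, or 57.1% against 8.84% of all entries. The count was 5 without batch 1 and 4 with library medians set equal or without batch 2, and the median was 1.0. *myo-2*, the pharyngeal myosin heavy chain, had 10.5, 11.1 and 17.02 FPKM in N2 and 24.6, 25.97 and 34.4 FPKM in *daf-1* (1.14, SE 0.08, adjusted p = 0.000764). Batch 3 was the highest library for *myo-2* in both genotypes, and its call was lost with library medians set equal.

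Genes of neurons were described next. None of 21 pan-neuronal genes was called by limma, while 17 were higher at an unadjusted p below 0.05 and 13 at the adjusted p, against 26.9% and 22.3% of all entries, with a median of 0.54. *egl-3*, a proprotein convertase that processes neuropeptides, had 30.2, 31.8 and 33.6 FPKM in N2 and 51.7, 54.9 and 57.5 FPKM in *daf-1* (0.78, SE 0.06, adjusted p = 0.000768). Of 28 FLP neuropeptide genes 3 rose, or 10.7% against the background of 8.84%, and 5 without batch 1. At the adjusted p 26 of them were higher and 1 lower, and their median was 0.75. *flp-12* had 12.76, 14.1 and 11.5 FPKM against 24.2, 30.2 and 26.6 FPKM (1.06, SE 0.09, adjusted p = 0.00122), with its call lost without batch 3 and with library medians set equal. *flp-1* was at 0.87 (SE 0.06). Of 71 NLP peptide genes 9 rose, or 12.7% against 8.84% of all entries, among them *nlp-39* and the epidermal peptides above, and the median was 0.58.

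Insulin-like peptides act in dauer entry alongside the DAF-7 pathway. Of 28 tested 6 rose and 1 fell, or 21.4% and 3.57% against 8.84% and 1.15% over all entries. The counts were 2 and 2 after quantile normalization and 2 and 1 without batch 2. *ins-11* had 0, 0.322 and 0.712 FPKM in N2 and 0.880, 2.80 and 3.43 FPKM in *daf-1* (2.18, SE 0.23, adjusted p = 0.00241). *ins-18* had 2.33, 3.30 and 3.19 FPKM against 5.44, 7.66 and 6.78 FPKM (1.11, SE 0.13, adjusted p = 0.00337), a call lost under both other scalings. The gene that fell was *ins-6*, which promotes exit from dauer, with 2.25, 1.72 and 0.969 FPKM in N2 and 0.217, 0.359 and 0 FPKM in *daf-1* (−2.13, SE 0.26, adjusted p = 0.00392). *ins-19* was the most abundant of those named, with 52.7, 52.5 and 53.4 FPKM against 83.7, 92.0 and 89.2 FPKM (0.74, SE 0.06), under the 2-fold minimum. No core gene of the insulin and steroid pathways was called by limma among 11 tested, with 1 higher and 3 lower at an unadjusted p below 0.05. Over all entries 26.9% were higher and 30.6% lower by that rule. Of 10 tested genes of the DBL-1 pathway, the other TGFβ pathway, limma called none, with 3 higher and 1 lower at an unadjusted p below 0.05. Its co-SMAD gene *sma-4* had 11.1, 10.1 and 10.2 FPKM in N2 and 19.6, 16.6 and 17.1 FPKM in *daf-1* (0.75, SE 0.08, adjusted p = 0.00298).

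Few receptors passed the minimum level. Of 42 tested chemoreceptor genes, out of 1630 in the table, 7 rose, or 16.7% against 8.84% of all entries. Among all entries below 1 FPKM 15.5% rose, and 13.1% among those from 1 to 10 FPKM. Without batch 2 the count of chemoreceptors that rose was 3. After quantile normalization 5 rose, 3 fell and the median of 0.33 turned to −0.09. *srw-85* had 0.198, 0.0728 and 0.0519 FPKM in N2 and 3.83, 3.85 and 3.45 FPKM in *daf-1* (3.49, SE 0.22, adjusted p = 0.000521). *srw-86* had 0.333, 0.103 and 0.738 FPKM against 3.91, 4.02 and 6.40 FPKM (3.06, SE 0.24). Neither gene would have passed the minimum on its N2 libraries alone. The chemoreceptors that rose had medians of 0.333, 0.103 and 0.215 FPKM in N2 batches 1 to 3, so the filter bears on their share. Of 149 nuclear hormone receptor genes 6 rose and 1 fell, a share of 4.03% higher against the background of 8.84%, with 5 and 5 after quantile normalization. *nhr-114*, which in *C. elegans* protects the germline on a poor bacterial diet, had 21.3, 24.3 and 20.8 FPKM in N2 and 106, 138 and 101 FPKM in *daf-1* (2.36, SE 0.07, adjusted p = 5.03e-05). It was the most abundant receptor of those that rose.

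Detoxification families were mixed. Of 41 tested UDP-glucuronosyltransferase genes, which conjugate small molecules, 8 rose and 1 fell, or 19.5% higher against 8.84% of all entries, with 6 and 4 after quantile normalization. *ugt-44* had 11.1, 11.8 and 11.3 FPKM in N2 and 72.6, 67.6 and 82.7 FPKM in *daf-1* (2.67, SE 0.09, adjusted p = 7.54e-05). *ugt-64* fell, from 40.1, 34.1 and 30.3 FPKM to 11.7, 11.5 and 11.5 FPKM (−1.56, SE 0.09, adjusted p = 0.000438). Of 43 cytochrome P450 genes 1 rose and 1 fell, or 2.33% each against 8.84% and 1.15% over all entries. Quantile normalization gave 0 and 4. Of 31 glutathione transferase genes 4 rose, or 12.9% against 8.84% of all entries. There were 2 without batch 1 and none after quantile normalization or without batch 2. *sod-3*, a mitochondrial superoxide dismutase and target of DAF-16, had 1.03, 0.564 and 0.481 FPKM against 2.42, 1.71 and 1.18 FPKM (1.10, SE 0.20, adjusted p = 0.0105), and its call was lost without batch 2.

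Fatty acid desaturases and elongases, which shape the fatty acid chains of lipids, were divided. Of 13 tested none rose and 1 fell, or 7.69% lower against 1.15% of all entries. At the adjusted p 5 were higher and 5 lower, where 22.3% and 26.7% of all entries were. The median was −0.07, which turned to 0.24 without batch 3. *elo-6*, an elongase gene, had 219.8, 168 and 155 FPKM in N2 and 325, 235 and 235 FPKM in *daf-1* (0.55, SE 0.05, adjusted p = 0.00155). Lower values were found in *fat-1*, *fat-2* and *fat-7*. *fat-2* and *fat-1*, which act early and late in the making of polyunsaturated fatty acids, had 572, 648 and 566 FPKM and 485, 497 and 419 FPKM in N2. In *daf-1* they had 306, 311 and 299.8 FPKM (−0.96, SE 0.05, adjusted p = 0.000361) and 265, 277 and 235 FPKM (−0.85, SE 0.04, adjusted p = 0.0003), both just under the 2-fold minimum. *fat-7*, a stearoyl-CoA desaturase, fell from 29.5, 26.9 and 17.1 FPKM to 14.9, 14.4 and 7.58 FPKM (−1.004, SE 0.09, adjusted p = 0.00145), with the call lost without batch 3. Of 41 genes of fatty acid activation and oxidation 6 rose, or 14.6% against 8.84% of all entries, and 3 after quantile normalization. *ech-9* had 0.470, 0.205 and 0.381 FPKM in N2 and 4.07, 2.99 and 4.37 FPKM in *daf-1* (2.76, SE 0.20, adjusted p = 0.000711), and *acs-7* differed by 1.53 (SE 0.10). *lipl-1*, a lysosomal lipase, had 1.65, 1.14 and 1.45 FPKM against 7.69, 6.92 and 8.10 FPKM (2.24, SE 0.15, adjusted p = 0.00062). It was 1 of 4 lipases tested to rise, or 25% against 8.84% of all entries. Of 16 genes of dauer and fasting metabolism *sodh-1* and *sod-3* rose, or 12.5% against 8.84% of all entries. Both calls were lost without batch 2 and with library medians set equal. Without batch 3 there were 4 that rose.

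Cytosolic heat shock genes were also divided. Of 17 tested 4 fell, or 23.5% against 1.15% of all entries. At the adjusted p 3 were higher and 8 lower, against 22.3% and 26.7% of all entries, with differences of up to 0.90. None was called without the batch block, 1 fell without batch 2, and without batch 3 there were 2 that rose and 1 that fell. In the fit as reported those that fell were *hsp-16.2*, *hsp-16.11*, *hsp-16.41* and F44E5.4. *hsp-16.11* had 19.7, 7.44 and 11.7 FPKM in N2 and 11.3, 2.69 and 4.73 FPKM in *daf-1* (−1.15, SE 0.15, adjusted p = 0.00444). Batch 1 was highest in both genotypes, so that the genotypes overlapped, and they did so in all 4 genes. Of the 156 entries that fell in all, 142 had libraries that did not overlap. The constitutive chaperone *hsp-1* had 2159, 2159.9 and 1663 FPKM against 1412, 1527 and 1316 FPKM (−0.48, SE 0.07, adjusted p = 0.00531). None of 15 genes of the unfolded protein response of the endoplasmic reticulum was called by limma. At an unadjusted p below 0.05 there were 1 higher and 4 lower, where 26.9% and 30.6% of all entries were. *hsp-4*, the usual reporter of that response, differed by −0.24 (SE 0.05).

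Along the chromosomes the share of tested entries that rose was 13.7% on V and 13.2% on IV, 10.4% on II, 8.68% on I, 6.18% on X and 5.65% on III. Runs of 4 or more neighbouring tested entries that were all called in the same direction numbered 20, and every entry in them rose. Over all entries 8.84% rose and 1.15% fell, so a run of entries that fell was unlikely beforehand. The number of runs was not tested. The longest run held 9 entries on chromosome IV, from 12936738 to 12991843, and spanned *dod-21*, *dod-24*, *dod-22*, *dod-17* and K10D11.5, with differences of 1.18 to 7.19. A further run of 8 entries on chromosome V, from 17085002 to 17155434, held *srh-237* and 5 ZK218 genes, with differences of 1.66 to 4.94. Shorter runs held *clec-62* to *clec-66* on chromosome II (12893062 to 12906644), *nlp-34*, *nlp-31*, *nlp-30* and *nlp-29* on V (3978825 to 3984847), and *btb-4*, *bath-19*, *bath-20* and *bath-24* on II (2032316 to 2045605). Other runs were made of *msp* and other sperm genes on chromosome IV. Neighbours in a run can share fragments where their transcripts overlap.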

How the data were processed

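RNA-seq of whole worms was measured in 3 N2 and 3 *daf-1*(*m40*) libraries. Per the labels and the study's methods, the authors made poly(A) libraries, demultiplexed with bcl2fastq 1.8.4, trimmed with Trim Galore 0.4.0, aligned to WBcel235 with TopHat2 2.0.12, and used Cufflinks (version 2.21 in the submitters' processing notes) to deposit FPKM per gene. Merged loci appear as joined entries (1852 of those tested), and the strandedness of the reads is not given in the sources used here, so overlapping and antisense genes cannot be told apart.

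Entries reaching 0.5 FPKM in 2 of the 6 libraries were fitted with limma 3.58.1 (R 4.3.3) on log2(FPKM + 0.25) with the batch number as a block and a trend of variance on level. Calls needed a 2-fold difference and a Benjamini-Hochberg adjusted p below 0.05. Of single-gene entries 95.7% had a position in the annotation. Named genes were, among called entries of 1 gene with libraries apart and a mean of 5 FPKM or more, the 12 highest, the 12 lowest and the 6 largest changes in mean FPKM each way, plus the DAF-7 pathway and up to 4 tested genes of smallest p from each of 59 lists. The members and the lists were chosen with earlier results of these data known. Alternatives were other pseudocounts, filters, scalings, libraries and models. Promoter sequence was not analysed here.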

Additional observations from a re-analysis of the deposited data

How the results depend on the processing

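The direction of most calls held in every alternative that kept the 2-fold minimum, with higher entries at 66.5% to 89.4% of calls. Without that minimum 45.6% of 6645 entries were higher (3029 higher, 3616 lower). With all 9 libraries in the fit 808 entries were called (702 higher), all of them among the 1354, and with a pseudocount of 1 there were 797 (703 higher, 94 lower). Quantile normalization gave 753 higher and 379 lower (66.5% higher), and equal library medians 942 higher and 262 lower (78.2% higher). The cause was not tested. Without the batch block 1169 entries were called, 1167 of them shared with the 1354. Leaving out each library, or both libraries of a batch, gave 724 to 1380 calls, 647 to 1226 higher, 77 to 199 lower and 85.3% to 89.4% higher. The counts of 724, 732 and 744 came without N2 replicate 2, without batch 2 and without *daf-1* replicate 2. With the block, a library left alone in its batch adds nothing to the genotype difference, so these settings are in effect the same check. Each of these fits has fewer residual degrees of freedom, as do those without batch 1 or 3. The other settings, which were a pseudocount of 0.05, both other filters, 8 libraries without the block, no trend of variance and single-gene entries, gave 996 to 1476 calls. Of the 255 named genes 235 to 254 kept their call or lack of call in each setting that kept the 2-fold minimum, and none reversed. No read counts are given, so counting error at low FPKM is unknown, and the median SE was 0.12.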

Other observations

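Several gene groups not described above gave few calls. Of 22 tested astacin metalloproteases, which process cuticle proteins, 2 rose and 1 fell, with a median of 0.50. The shares were 9.09% and 4.55%, against 8.84% and 1.15% over all entries. *nas-20* had 3.96, 2.48 and 2.73 FPKM in N2 and 7.09, 7.30 and 7.63 FPKM in *daf-1* (1.22, SE 0.18, limma adjusted p = 0.00578), and *nas-11* stayed just under the minimum at 0.99 (SE 0.08). Neither rise was called without batch 2 or after quantile normalization. Of 11 chitinase genes C08B6.4 rose, or 9.09% against 8.84% of all entries. It had 2.64, 4.06 and 15.4 FPKM against 12.11, 19.1 and 32.2 FPKM (1.77), and it was not called without the batch block. N2 batch 3 lay above *daf-1* batch 1 in that gene.

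Of 55 tested ligand-gated channel genes 3 rose, or 5.45% against 8.84% of all entries. Their median of 0.33 turned to −0.06 after quantile normalization. *unc-38*, a subunit of muscle acetylcholine receptors, had 1.75, 1.79 and 3.18 FPKM in N2 and 6.97, 4.81 and 6.30 FPKM in *daf-1* (1.36, SE 0.21, adjusted p = 0.00665), and none of the 3 was called without batch 2. Of 60 potassium and degenerin channel genes *twk-28* rose, and of 25 cilium genes *dyf-3* rose, by 1.30 (SE 0.22) and 1.13 (SE 0.16), with both calls lost without batch 2. These lists had 1.67% and 4% that rose, against 8.84% of all entries. The cilium median of 0.33 turned to −0.08 after quantile normalization. No gene was called by limma among 19 of neurotransmitter synthesis and transport, 9 of coelomocytes and the excretory system, 8 heterochronic genes and 21 of the respiratory chain. At an unadjusted p below 0.05 these held 8 higher and 1 lower, 2 and 2, 0 and 2, and 7 and 6, in the same order. Over all entries 26.9% were higher and 30.6% lower by that rule.

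Of 23 short-chain dehydrogenase genes 3 rose, 1 of them also with library medians set equal, which turned their median from 0.16 to −0.01. *dhs-18* had 9.75, 9.08 and 8.60 FPKM in N2 and 24.2, 22.9 and 22.6 FPKM in *daf-1* (1.32, SE 0.08, adjusted p = 0.000438). Of 15 antioxidant and metal genes 2 rose and 1 fell, or 13.3% and 6.67% against 8.84% and 1.15% over all entries. None was called without batch 2. Respiratory chain genes held a pair of ATP synthase paralogs of opposite direction, as *asb-2* had 235, 232 and 214 FPKM in N2 and 334, 347 and 283 FPKM in *daf-1* (0.49, SE 0.05, adjusted p = 0.00285). Its paralog *asb-1*, which is expressed in the germline, had 265, 253 and 211 FPKM against 178, 181 and 164 FPKM (−0.47, SE 0.06, adjusted p = 0.00389). Neither reached the 2-fold minimum. Both were named for their small p, so their lack of overlap is no result.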
